A study of Mus musculus with 8 samples.

Results

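The genes described here carry out antigen presentation by the major histocompatibility complex (MHC): H2-K1, H2-D1, Tap1, Tap2 and Nlrc5 on the class I side, and Cd74, H2-Aa, H2-Ab1, H2-Eb1 and Ciita on the class II side. They were taken from the count table by Ensembl gene ID, matched to symbols in GENCODE M21 (Ensembl 96), which gave 10 genes of 21859. B2m, the light chain of class I molecules, was left out: its whole span lies inside Patl2 on the opposite strand, and it had 0 counts. PER-M60, from which all 8 samples came, is a line of leukaemia cells of the mouse. Control media was used for 4 cultures and osteoclast-conditioned media for 4, called conditioned cultures from here on; osteoclasts are the cells that resorb bone. The labels give no genotype, mouse strain, age or length of culture, and every value comes from this 1 line. RNA of each culture was sequenced, and the question was how the conditioned medium alters the transcriptome of the leukaemia cells.

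Class I molecules display peptides made inside the cell to cytotoxic T cells. Tap1 and Tap2 form the pump that carries these peptides into the endoplasmic reticulum, and Nlrc5 is the transactivator of class I genes. Class II molecules are heterodimers of an α and a β chain that display peptides from the endocytic pathway to helper T cells. Cd74, the invariant chain, holds their groove until peptide is loaded, and Ciita is the master transactivator of class II genes. In the B lineage, class II expression is typically low in early precursors and high in mature B cells.

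Both transactivators act through a shared promoter module, in which an X2 box (core TGACG, bound by CREB and ATF factors) lies upstream of a Y box (CCAAT, often inverted as ATTGG, bound by NF-Y). RefSeq promoter sequences of GRCm38.p6 were at hand for 5 of the 10 genes: H2-K1, H2-D1, Tap1, H2-Aa and H2-Eb1. They are shown here because the class I heavy chain genes rose together while H2-Aa was not called, and all 3 hold the module. The first group gives the stretch from the X2 core to the inverted Y box, 5′ to 3′ on the strand of the gene, with the motif matches in capitals. In GENCODE M21 the H2-D1 stretch lies in the untranslated part of the first exon of a longer transcript, and the other stretches lie upstream of their genes. They lie at chr17:34000359-34000388 (minus strand), chr17:35262993-35263022 (plus strand) and chr17:34287867-34287897 (minus strand).
H2-K1: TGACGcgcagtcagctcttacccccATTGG
H2-D1: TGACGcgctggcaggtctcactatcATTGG
H2-Aa: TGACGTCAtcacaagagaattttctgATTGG
In H2-Aa the X2 core is part of a palindrome that matches on both strands. The X2 core and the inverted Y box start 25 bases apart in H2-K1 and H2-D1 and 26 bases apart in H2-Aa. A pair of these exact letters on the given strand, spaced 23 to 26 bases apart, was found in 42 of 32851 RefSeq windows of 300 bases (0.128%). Those windows include the ones shown here. The range of spacing was not part of the planned search, so the share is a description.

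The 250 bases before the start site follow for H2-K1 (chr17:34000348-34000597, minus strand, at the upstream of 2 RefSeq starts) and H2-Aa (chr17:34287824-34288073, minus strand). Capitals mark matches on either strand to CCAAT, to TGACG, to a loose NF-kB type site or to an interferon regulatory factor (IRF) element. The NF-kB type site was searched as GGG followed, with 5 bases of any kind between, by CC. The IRF element was searched as GAAA repeated with 2 bases of any kind between.
H2-K1 promoter: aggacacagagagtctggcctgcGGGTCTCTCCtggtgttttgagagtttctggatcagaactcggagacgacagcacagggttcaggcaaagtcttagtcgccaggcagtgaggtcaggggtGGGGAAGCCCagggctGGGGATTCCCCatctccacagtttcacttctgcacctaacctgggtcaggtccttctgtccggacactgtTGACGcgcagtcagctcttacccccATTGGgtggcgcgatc
H2-Aa promoter: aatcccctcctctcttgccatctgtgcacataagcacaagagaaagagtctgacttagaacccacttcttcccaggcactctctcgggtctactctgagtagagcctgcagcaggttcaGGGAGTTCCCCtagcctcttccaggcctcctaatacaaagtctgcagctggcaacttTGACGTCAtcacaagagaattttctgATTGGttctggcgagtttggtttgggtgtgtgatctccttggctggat
Matches to the NF-kB type site overlapped each other on both strands, so 1 stretch of capitals can hold several. Of all windows, CCAAT was in 37.4%, TGACG in 20.8%, the IRF element in 3.44% and the NF-kB type site in 50.8%. The IRF element was in none of the 5 genes' windows, which says only that those letters are not there. The H2-D1 stretch above belongs to a window that aligned with that of H2-K1 over 177 positions, of which 161 (91.0%) were identical. A match to these letters describes the sequence and does not show that a factor binds.

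**Figure D1:**
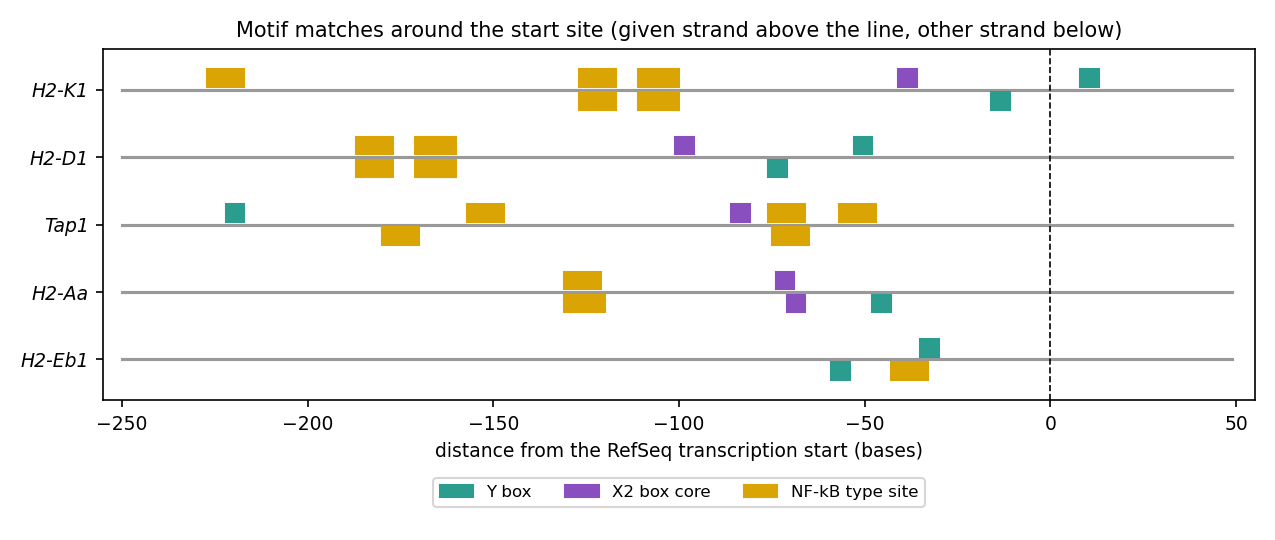
Positions of motif matches from 250 bases before to 49 bases after the RefSeq transcription start (x axis, bases; dashed line, start) for the 5 genes with a window, with matches on the given strand above each line and on the other strand below. In H2-K1, H2-D1 and H2-Aa an X2 core is followed by an inverted Y box 25 or 26 bases downstream. No such pair in these exact letters was found in the windows of Tap1 and H2-Eb1, and variant boxes were not searched.

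Total counts ran from 15391754 to 21637966 per culture, and 6700 gene IDs had 0 counts in every culture. A floor of 3 counts corresponded to 0.139 to 0.195 CPM (counts relative to the library total), a limit that covers counting error only. Chi-square per degree of freedom was 1.31 to 4.33 between cultures of 1 medium and 6.30 to 10.4 between media. Each culture was kept as a replicate, as the labels number them, and these values cannot show how independently the cultures were grown. The common coefficient of variation between replicates estimated by edgeR was 0.0304, and the adjusted p-values below rest on that small spread. edgeR's quasi-likelihood test was run on the 10729 genes that passed its filter on low counts, with Benjamini-Hochberg adjustment over all of them, and a gene is said to have risen or fallen where the adjusted p was under 0.05. By that rule 30.5% of tested genes were called, 15.7% higher and 14.8% lower with conditioned medium, and the median absolute log2 fold change of all tested genes was 0.09. The labels name no batch.

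The cultures were checked for RNA of other cells that carry MHC class II. B lineage markers dominated, with summed normalised CPM (scaled by edgeR's TMM factors) of 4319 to 4369 in control and 4612 to 4642 in conditioned cultures; of the 10 tested, 6 were called higher and 1 lower, against 15.7% and 14.8% of all tested genes. Dendritic cell markers summed to 2.26 to 3.73 and 3.17 to 4.79, with Clec9a, Siglech and Cd209a at 0 and 6 of 8 at no more than 3 counts in any culture. Ccr7 made up most of that sum, at means of 2.67 in control and 3.49 in conditioned cultures, and was not called. Macrophage markers summed to 20.55 to 22.01 and 21.4 to 25.1, with Cd14, Itgam, C1qa, C1qb and C1qc at 0. Mrc1 made up most of that sum, at means of 14.3 and 14.7, and Cd68 had 2.11 and 2.13, with neither called. Within that list Lyz2 rose from 4.46 to 5.91 normalised CPM, and its part in the class II results was not tested. Osteoclast markers summed to 35.8 to 37.2 and 34.4 to 37.9, with Dcstamp and Ocstamp at 0. Of the 2 tested, Acp5 made up most of the sum, at means of 22.9 and 24.4, and was not called. The other, Itgb3, was called lower. T cell markers summed to 133 to 134 and 134 to 137, nearly all of it Lck; the other 5 listed, Cd3d, Cd3e, Cd3g, Cd4 and Cd8a, had no more than 3 counts in any culture. In bulk RNA, fewer cells of a type and less RNA per cell cannot be told apart.

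All 10 genes had counts and passed the filter. Of them, 7 rose, 1 fell and 2 were not called, against 15.7% higher and 14.8% lower among all tested genes. The cultures of the media did not overlap in 8 of the 10, where 28.2% of all tested genes showed no overlap. The median log2 fold change of the 10 was 0.15, and that of all tested genes -0.01. The class I side rose in 5 of 5 genes by small amounts, between 6.68% and 15.3%. The class II side was divided: Cd74 and Ciita rose, H2-Ab1 fell, and H2-Aa and H2-Eb1 were not called. Since these genes were picked with earlier results of the same data known, the counts are a description.

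**Figure D2:**
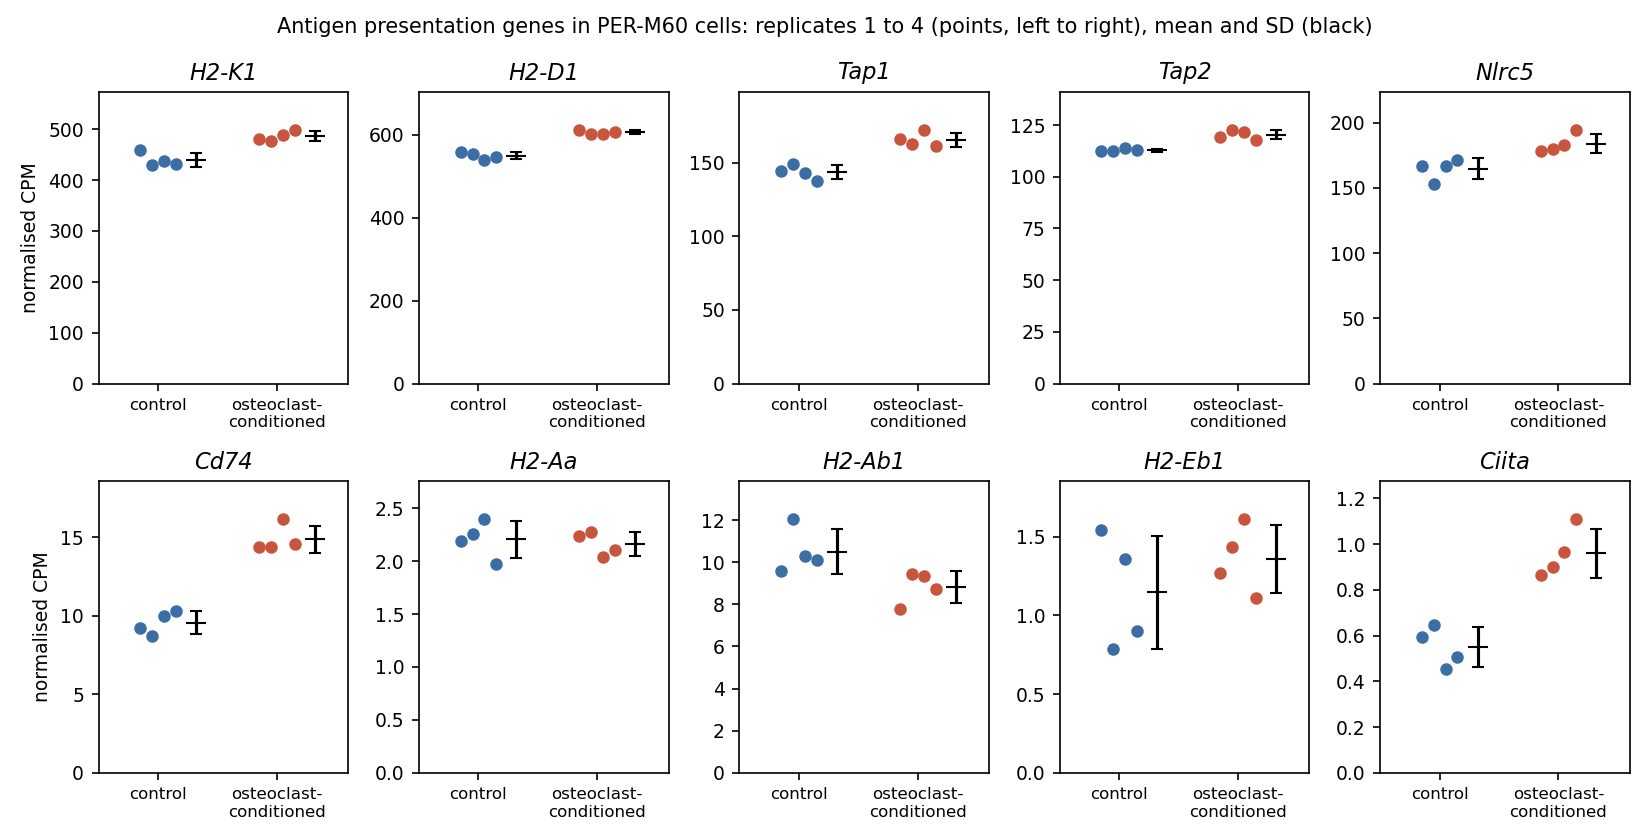
Normalised CPM (y axis, from 0, a separate scale in each panel) of the 10 genes in the 4 control cultures (blue) and the 4 conditioned cultures (red), with black marks for the mean and SD. The 5 class I genes sit slightly higher in conditioned cultures with no overlap, Cd74 is higher by 1.56-fold, H2-Ab1 is lower, and the points of H2-Aa and H2-Eb1 overlap.

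The classical class I heavy chains were the most abundant of the 10 genes and rose by about the same factor. H2-D1 (ENSMUSG00000073411, chr17:35262730-35267499, plus strand, GRCm38) had 558, 553, 539 and 547 normalised CPM in control cultures 1 to 4 and 611, 603, 603 and 608 in conditioned cultures 1 to 4. The lowest conditioned culture lay above the highest control culture, and the spread within each medium was small. The means were 549 ± 8.36 and 606 ± 4.19 (SD, n = 4 each), and the log2 fold change was 0.14 (SE 0.02, adjusted p by edgeR = 4.72e-05). H2-K1 (ENSMUSG00000061232, chr17:33996017-34000347, minus strand), which encodes the other classical heavy chain, had 458, 429, 438 and 432 in control cultures and 481, 476, 488 and 498 in conditioned cultures. Its groups were also apart, with control culture 1 the nearest to the other medium. The log2 fold change was 0.15 (SE 0.03, adjusted p by edgeR = 0.000105). The ratio of H2-D1 to H2-K1 counts was 1.25 ± 0.0328 in control and 1.25 ± 0.0250 in conditioned cultures, so the balance of the heavy chains differed by less than the spread between cultures.

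Both subunits of the peptide pump rose; whether their changes differ was not tested. Tap1 (chr17:34187553-34197225, plus strand) had 144, 149.5, 143 and 138 normalised CPM in control cultures and 166, 163, 172 and 161 in conditioned cultures. No control culture reached the lowest conditioned culture. The means were 144 ± 4.72 and 166 ± 4.83 (SD, n = 4 each), and the log2 fold change was 0.20 (SE 0.03, adjusted p by edgeR = 7.09e-06). Tap2 (chr17:34203527-34216321) had 112, 112, 114 and 113 in control medium, a very narrow range, and 119, 123, 122 and 118 in conditioned cultures. The groups were apart by a few CPM. Its log2 fold change was 0.09 (SE 0.03, adjusted p by edgeR = 0.0181), the smallest of the called genes among the 10. The ratio of Tap1 to Tap2 counts was 1.27 ± 0.0449 in control medium (1.22 to 1.33) and 1.38 ± 0.0378 in conditioned cultures (1.33 to 1.42), so the ranges met at their ends. The Tap2 call was lost without conditioned culture 2 (adjusted p by edgeR = 0.0527) or 3 (0.0585), and with scaling by total counts only (log2 fold change 0.07, adjusted p by edgeR = 0.0606). Of the span of Tap1, 2.19% overlaps Psmb9 on the opposite strand, and whether the counting used strand is not given in the sources used here.

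Nlrc5 (chr8:94434356-94527272), the class I transactivator, had 167, 153, 167 and 172 normalised CPM in control cultures and 178, 179.6, 183 and 194 in conditioned cultures. The groups did not overlap, although control culture 4 and conditioned culture 1 lay close. Means were 165 ± 7.97 and 184 ± 7.33 (SD, n = 4 each), with a log2 fold change of 0.16 (SE 0.03, adjusted p by edgeR = 0.000719). Together the 5 class I genes took 0.142% ± 0.00269 of all counts in control cultures and 0.155% ± 0.00207 in conditioned cultures (SD, n = 4 each). H2-K1, H2-D1, Tap1 and Nlrc5 were called higher under each of the 17 alternatives run. Sequence shared with other genes may limit some of these values. Of the 50-base stretches, 9.63% in H2-K1 transcripts, 12.8% in H2-D1 and 11.6% in Tap2 also occur in other genes, on either strand. For Tap2, 9.22% occur in Gm15821 in antisense. The part of shared sequence in these values was not tested. How reads matching several genes were counted is not given in the sources used here.

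On the class II side, Cd74 rose while H2-Ab1 fell. Cd74 (ENSMUSG00000024610, chromosome 18, 60803848 to 60812652) had 9.24, 8.72, 9.97 and 10.3 normalised CPM in control cultures and 14.4, 14.4, 16.2 and 14.6 in conditioned cultures. Every conditioned culture was well above every control culture. The means were 9.56 ± 0.723 and 14.9 ± 0.860 (SD, n = 4 each), a 1.56-fold difference with a log2 fold change of 0.64 (SE 0.08, adjusted p by edgeR = 1.51e-07). Of all tested genes, 98.7% had a smaller absolute log2 fold change, and 1.48% were both called and changed at least 1.5-fold. The call was kept under each of the 17 alternatives.

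H2-Ab1 (ENSMUSG00000073421, chr17:34257689-34269419), the β chain of the I-A molecule, went the other way. It had 9.59, 12.0, 10.3 and 10.1 normalised CPM in control cultures and 7.78, 9.46, 9.34 and 8.75 in conditioned cultures. Control culture 1 and conditioned culture 2 were nearly level, and control culture 2 was the highest of all. The means were 10.5 ± 1.06 and 8.83 ± 0.766 (SD, n = 4 each), and H2-Ab1 fell by 0.26 on the log2 scale (SE 0.09, adjusted p by edgeR = 0.0252). The call was lost without control culture 2 (log2 fold change -0.18, adjusted p by edgeR = 0.136), without conditioned culture 1 (-0.20, 0.125) and in DESeq2 (adjusted p = 0.0777). The ratio of Cd74 to H2-Ab1 counts was 0.920 ± 0.133 in control medium (0.724 to 1.02) and 1.69 ± 0.138 in conditioned cultures (1.52 to 1.85), with no overlap.

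The other I-A and I-E chains were sparse. H2-Aa (chr17:34282744-34287823), the I-A α chain, had 2.19, 2.26, 2.40 and 1.98 normalised CPM in control cultures and 2.24, 2.28, 2.04 and 2.10 in conditioned cultures. The conditioned range lay inside the control range. Its log2 fold change was -0.03 with a 95% interval of -0.34 to 0.29 (adjusted p by edgeR = 0.919), on 314 counts over all cultures, and it changed sign without control culture 3 or conditioned culture 3 (0.01 and 0.00). H2-Eb1 (chr17:34305867-34316674), the I-E β chain, had 1.54, 0.784, 1.36 and 0.903 in control cultures and 1.27, 1.44, 1.61 and 1.11 in conditioned cultures. Control cultures 1 and 3 lay within the range of the other medium. The log2 fold change was 0.28 with an interval of -0.18 to 0.74 (adjusted p by edgeR = 0.397), on 178 counts. Leaving out 1 culture moved it from 0.11 (without control culture 2) to 0.46 (without control culture 1), and it was called in 0 of those 8 fits. For H2-Aa, a fall of the size seen in H2-Ab1 lies within the interval.

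Ciita (ENSMUSG00000022504, chr16:10480059-10528418), the class II transactivator, was the least abundant of the 10 genes. It had 0.592, 0.646, 0.453 and 0.508 normalised CPM in control cultures and 0.865, 0.898, 0.966 and 1.11 in conditioned cultures. The groups did not overlap, on 40 counts in control and 69 in conditioned cultures. The log2 fold change was 0.77 (SE 0.27, 95% interval 0.24 to 1.31, adjusted p by edgeR = 0.0310). That call was lost without control culture 1, 3 or 4 or conditioned culture 3 or 4 (log2 fold change 0.70 to 0.87 and adjusted p by edgeR 0.0295 to 0.0761 over the 8 fits that left out 1 culture). It was also lost in DESeq2 (0.79, adjusted p = 0.121) and with no filter on low counts (0.77, adjusted p by edgeR = 0.0506). Of the span of Ciita, 53.5% lies inside Dexi on the opposite strand, and Dexi itself had 11.5 ± 0.843 and 11.6 ± 0.785 normalised CPM (SD, n = 4 each). The part of reads from Dexi in the Ciita counts was not tested. Together the 5 class II genes took 0.00241% ± 5.09e-05 of all counts in control cultures and 0.00280% ± 0.000149 in conditioned cultures (SD, n = 4 each). The sum does not stand for its genes alike: Cd74 had 682 and 1074 counts, H2-Ab1 761 and 635, and H2-Aa 158 and 156.

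Levels were compared between genes per kilobase of merged exons, as the median over all 8 cultures in normalised CPM per kilobase. H2-D1 led at 225, followed by H2-K1 at 159. The pump and the class I transactivator formed a middle group, with Tap2 at 30.6, Tap1 at 28.4 and Nlrc5 at 20.6. The ranges of Tap2 and Tap1 overlapped, although Tap2 was the higher in 8 of 8 cultures. The class II side was far lower, with Cd74 at 7.35, H2-Ab1 at 3.71, H2-Eb1 at 0.677, H2-Aa at 0.583 and Ciita at 0.0792. H2-Eb1 and H2-Aa overlapped and H2-Eb1 was the higher in 6 of 8 cultures, so their order is not settled. The ranges of all other neighbours in this order did not overlap. H2 genes are highly polymorphic and the strain is not given, so alleles unlike the reference may be counted less fully; their part in the order of levels was not tested. The level of Ciita is divided by all its exon bases, while 53.5% of its span and 3.45% of its exon bases lie inside the span and exons of Dexi. B2m, Tapbpl and Irf8, each wholly inside another gene, had 0 counts. The part of the overlap in the level of Ciita was not tested.

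**Figure D3:**
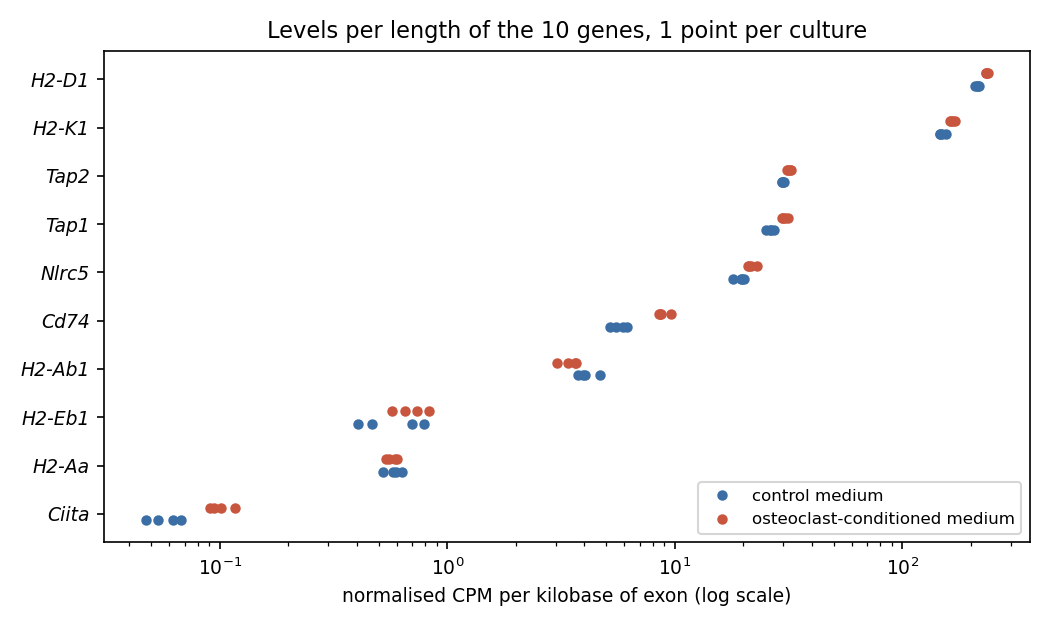
Normalised CPM per kilobase of exon (x axis, log scale) of the 10 genes, ordered by their median, with 1 point per culture in control (blue) and osteoclast-conditioned (red) medium. The class I heavy chains lie at the top with medians of 225 and 159, the class II genes lie below all class I genes, and Ciita is lowest at 0.0792.

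The genes whose pattern over the 8 cultures was most like that of a chosen gene were found by Pearson's r of log2 CPM, for the class I and the class II gene with the most counts. For H2-D1 they were B4galt1 (r = 0.995), Arid5a (0.993) and Trim35 (0.993), and 266 genes had r above 0.95. For Cd74 they were Pkd1 (0.995), Mycbp2 (0.994) and Arhgef18 (0.994), with 248 genes above 0.95. The 8 cultures share a split by medium that raises r for any gene with a clear difference, and r is given as a description.

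Of the other genes of the pathway, 66 were tested, of which 17 rose, 4 fell and 45 were not called. That is 31.8% called, close to the 30.5% of all tested genes, and their median log2 fold change was 0.03. Non-classical class I genes present restricted ligands or act as ligands of innate receptors. Of the 9 tested, 4 rose, 0 fell and 5 were not called, with a median of 0.00. H2-T24 had a log2 fold change of 0.29 (20.3 ± 0.908 to 24.8 ± 1.33 normalised CPM), H2-Q4 of 0.28 (91.9 ± 9.27 to 111 ± 4.81) and H2-T23, the mouse Qa-1 molecule, of 0.22 (25.5 ± 0.949 to 29.7 ± 0.314; SD, n = 4 each). H2-M3, which presents formylated peptides, was the fourth at 0.17 and lost its call without control culture 3 or 4 or conditioned culture 1, 2 or 3 (adjusted p by edgeR up to 0.173). That call was also lost with total counts only (adjusted p by edgeR = 0.0738), upper-quartile scaling (0.0522) and DESeq2 (0.0971). Of the 50-base stretches of H2-Q4 transcripts, 36.4% also occur in other genes, so its value is uncertain. H2-Q6 and H2-Q7, with 34.97% and 26.5% of such stretches shared, had -0.03 and -0.07 and were not called. H2-Q7 passed the threshold without control culture 2 (-0.09, adjusted p by edgeR = 0.0285) or conditioned culture 4 (-0.10, 0.0236).

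Of the 5 peptide loading factors tested beside the pump, 3 fell, 1 rose and 1 was not called (median log2 fold change -0.08), against 14.8% lower and 15.7% higher among all tested genes. Calr, the chaperone that holds the class I heavy chain in the loading complex, went from 857 ± 15.2 to 670.4 ± 16.2 normalised CPM (log2 fold change -0.35, SE 0.03, adjusted p by edgeR = 7.60e-12). Pdia3, the thiol oxidoreductase ERp57, fell by 0.20 on the log2 scale, and Canx, the chaperone calnexin, fell by 0.08. All 3 are general folding factors of the endoplasmic reticulum as well. The Canx call was lost without conditioned culture 3 (adjusted p by edgeR = 0.0646) or 4 (0.0823). Erap1, which trims peptides in the endoplasmic reticulum, rose from 277 ± 17.1 to 324 ± 14.4 normalised CPM (log2 fold change 0.23). Tapbpl had 0 counts and lies wholly inside another listed gene.

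In the immunoproteasome, which cuts proteins into peptides suited to class I, 1 of 5 genes rose and 4 were not called (20.0%, against 30.5% of all tested genes). Psmb8, which lies between Tap1 and Tap2, had a log2 fold change of 0.10 (189.5 ± 3.30 to 204 ± 4.73 normalised CPM, adjusted p by edgeR = 0.00534). Psmb9, the neighbour that overlaps the start of Tap1, had 45.4 ± 1.202 and 45.4 ± 2.19 (log2 fold change -0.0018). Psmb10, Psme1 and Psme2 had log2 fold changes of -0.01, -0.01 and 0.05. Of the 3 constitutive catalytic subunits 0 were called, and Psmb7, the one with the most counts, had 0.02.

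Among the other genes of class II handling, 3 of 10 rose, 1 fell and 6 were not called (median 0.03), which is 40.0% called against 30.5% of all tested genes. Lgmn, a lysosomal protease, went from 61.3 ± 2.12 to 86.4 ± 2.24 normalised CPM (log2 fold change 0.50, SE 0.04, adjusted p by edgeR = 9.83e-12). Ctss, the protease that degrades the invariant chain, had a log2 fold change of 0.33 (10.6 ± 0.598 to 13.2 ± 0.702). H2-Ob, a subunit of the inhibitor of peptide exchange on class II, fell from 45.8 ± 1.72 to 32.6 ± 2.18 (log2 fold change -0.49, SE 0.05, adjusted p by edgeR = 5.44e-09). H2-DMb1, a subunit of the exchange catalyst itself, had 0.23, and 22.7% of its 50-base stretches are shared with other genes. Its call was lost without control culture 4 (0.20, adjusted p by edgeR = 0.0550) and in DESeq2 (0.23, adjusted p = 0.0564).

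Of the tested genes, 14.3% were called among promoter-binding factors, 23.1% in interferon signalling, 30.0% of interferon targets and 25.0% of co-stimulatory and inhibitory ligands, against 30.5% of all genes. Of the factors that bind MHC promoters, 1 of 7 rose: Rfx5, a subunit of the X box complex, at a log2 fold change of 0.17 (33.3 ± 2.35 to 37.3 ± 1.01 normalised CPM). The other 6, which include the NF-Y subunits and Creb1, lay between -0.11 and 0.05. Rfxap was also called, as lower, without conditioned culture 4 (-0.15, adjusted p by edgeR = 0.0418), and Nfya, as lower, with total counts only (-0.079, 0.0340), which made the count 2; at an adjusted p under 0.01 it was 0. Of interferon signalling genes, 3 of 13 rose and 0 fell (median 0.07). Ifnar1 and Ifngr1, chains of the type I and type II interferon receptors, had log2 fold changes of 0.24 and 0.16. Irf8 had 0 counts and lies wholly inside Gm20388. Of interferon targets, 3 of 10 rose and 0 fell (median 0.10), all of them guanylate-binding proteins. Gbp2 had a log2 fold change of 0.69 (5.08 ± 0.479 to 8.22 ± 0.499 normalised CPM, adjusted p by edgeR = 3.48e-06), Gbp7 of 0.19 and Gbp3 of 0.12. A further 8 targets were below the filter on low counts, among them Ifit1, Isg15 and Rsad2 with at most 6 counts in any culture. Of co-stimulatory and inhibitory ligands, 1 of 4 rose: Pdcd1lg2, a ligand of PD-1, at 0.66 on 161 counts, a call lost without control culture 1, 2 or 3 or conditioned culture 1 or 3 (adjusted p by edgeR up to 0.130) and in DESeq2 (0.65, adjusted p = 0.121). Cd40 and Cd86 were below the filter.

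**Figure D4:**
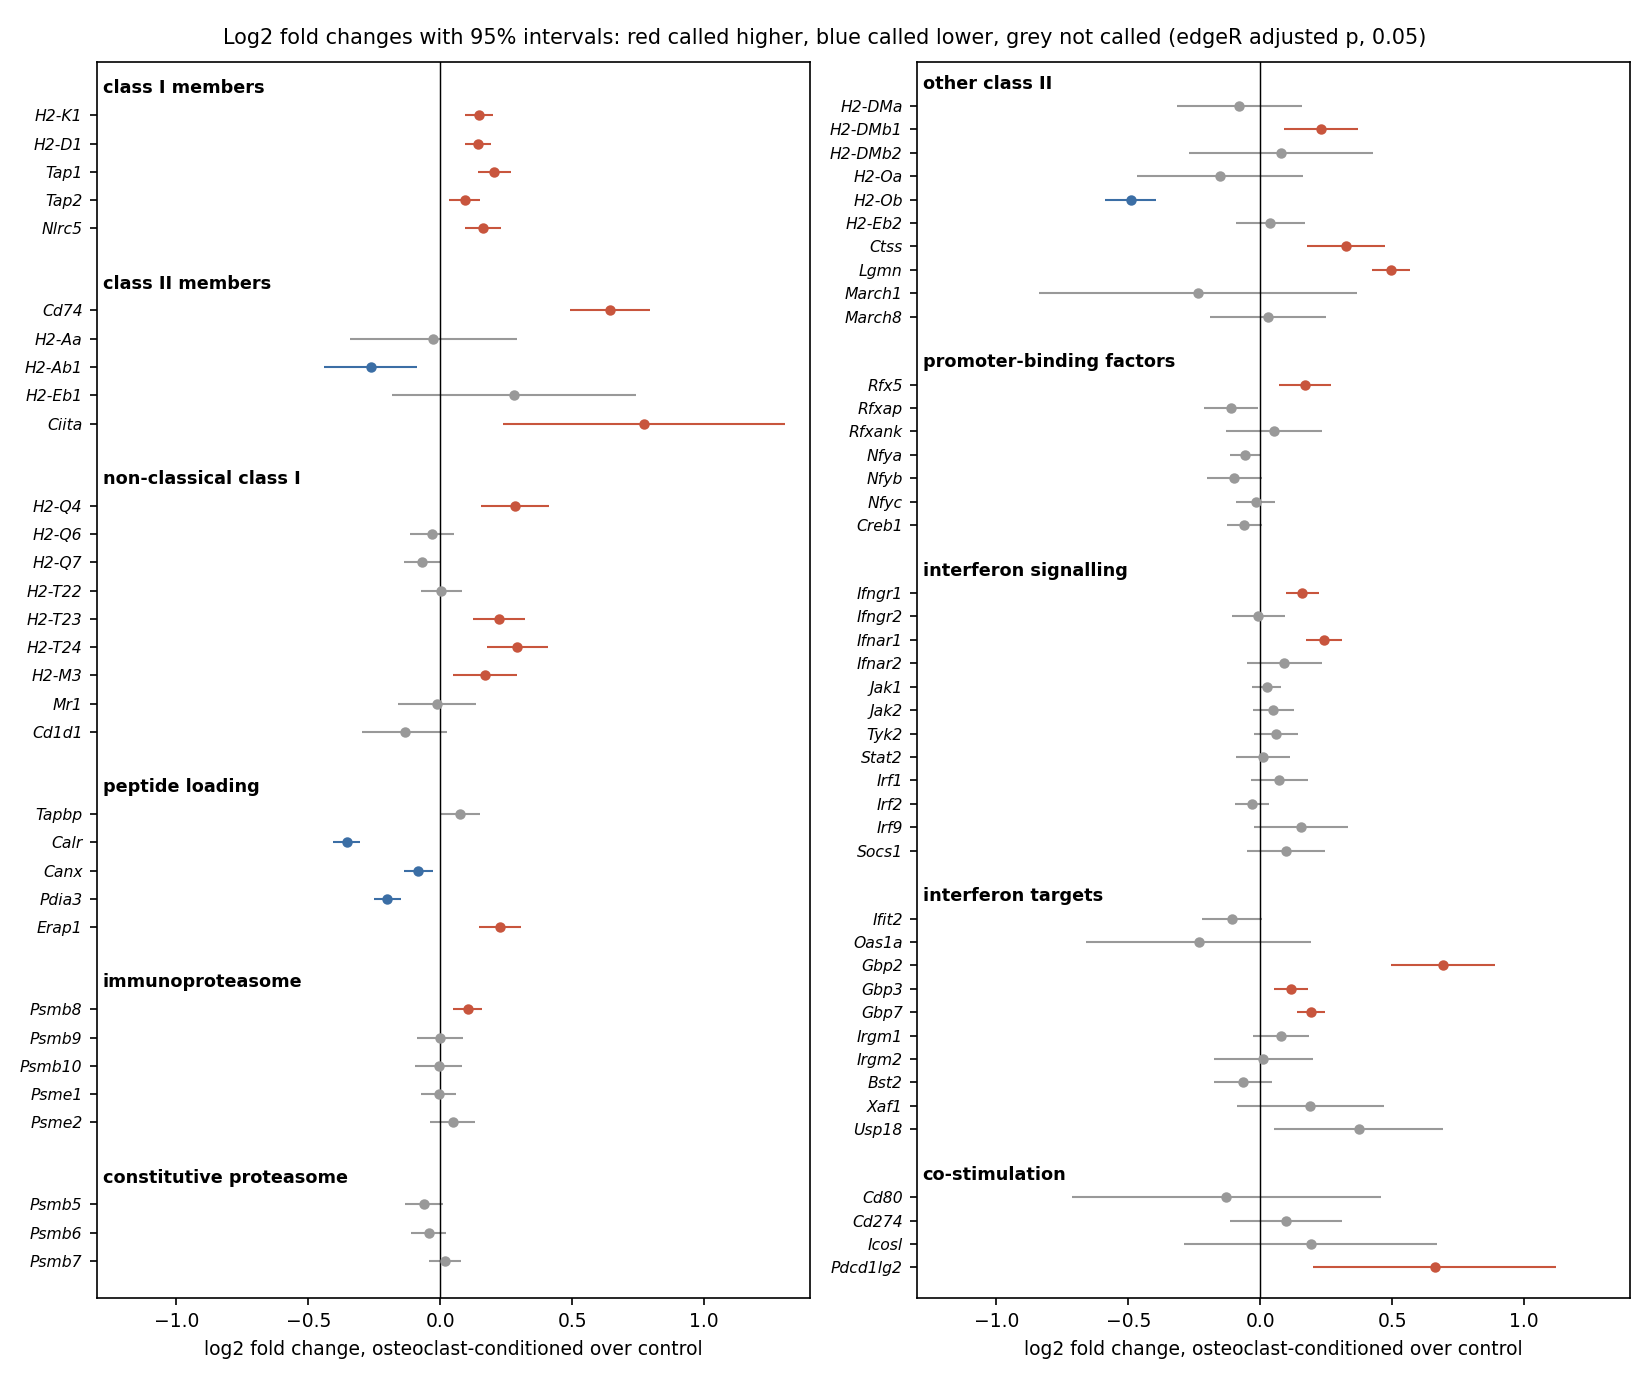
Log2 fold change of osteoclast-conditioned over control medium (x axis) with its 95% interval for the 10 genes and all but 1 of the 66 other tested genes of the pathway, grouped by role; red was called higher, blue lower and grey not called at an adjusted p of 0.05 (edgeR). The 5 class I genes form a narrow column between 0.09 and 0.20, while the class II genes spread from -0.26 to 0.77 with wider intervals.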

How the data were processed

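RNA of 8 PER-M60 cultures was measured by RNA sequencing with the SureSelect HS2 kit, per the labels' protocols. The authors deposited 1 table of whole-number counts, not normalised, by Ensembl gene ID. STAR 2.7.5a, featureCounts 2.0.1 and mm10 are named, per the submitters' processing notes, without parameters. The annotation and the handling of strand, multi-mapping reads and molecular barcodes are not given in the sources used here. Totals were 15391754 to 21637966 per culture. Symbols and positions came from GENCODE M21 (GRCm38), which matched 21817 of 21859 IDs.

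The test was that of edgeR 4.0.16, run in R 4.3.3 (filterByExpr, TMM, robust glmQLFit, glmQLFTest, medium as the term), with Benjamini-Hochberg adjustment over 10729 genes and a threshold of 0.05. The fit was tested on simulated counts. Standard errors came from the F statistic, and 95% intervals are 1.96 SE. Promoters came from RefSeq (GRCm38.p6); windows with annotated untranslated bases were not printed beyond the module. Alternatives were other scalings, filters and thresholds, DESeq2 1.42.0, limma-voom (limma 3.58.1), the replicate number as a block, and leaving out each culture. Annotation and figures used Python 3.11.15 with pandas 2.3.3 and matplotlib 3.10.9.

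The genes and lists were chosen with earlier results of these data known. All 10 genes are named; of each list, up to 3 called genes with the largest absolute change are named, or, with none called, the one with the most counts. H2-M3, H2-DMb1, Canx, Psmb9, Psmb10, Psme1, Psme2, H2-Q6, H2-Q7, Rfxap, Nfya and the genes listed at 0 or below the filter were named after their values were seen. The values of 1 gene of the interferon signalling list are not reported here, though it is in the counts.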

Additional observations from a re-analysis of the deposited data

Results flagged for a closer look

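For each of 38 named genes, the culture at either end of a medium's 4 values was examined, and its gap to the nearest value was divided by the range of the 4. Of 76 groups of 4, 4 exceeded Dixon's 95% critical value, where chance gives about 1 in 20 groups, or 3.8. Cd74 was highest in osteoclast-conditioned culture 3, at 16.2 normalised CPM against 14.4 to 14.6 in the others (0.879). H2-T24 was highest in the same culture, at 26.8 against 24.1 to 24.2 (0.975). Erap1 was highest in control culture 2, at 302 against 265 to 271 (0.850). H2-Q7 was highest in osteoclast-conditioned culture 4, at 148 against 133 to 136 (0.855).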

How the results depend on the processing

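At an adjusted p under 0.01 the test called 2147 genes (948 lower) and 5 of the 10 antigen presentation genes (0 lower); Tap2 (log2 fold change 0.093), H2-Ab1 (-0.26) and Ciita (0.77) were lost. DESeq2 called 0 of the 10 lower, with H2-Ab1 at -0.26 and Ciita at 0.79. With total counts only, 3395 genes were called, 1383 higher and 2012 lower, against 1689 and 1584 with TMM, Tap2 was 0.072 and Psmb7 became -0.0048. Without a filter on low counts Ciita was 0.77 and not called. Psmb9 became 0.00035 with a mean of at least 50 counts and 0.00040 with the replicate block. The mean-50 filter gave no value for H2-Aa, H2-Eb1, Ciita or Pdcd1lg2. The cause of these changes was not tested.

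Leaving out 1 culture gave 2635 to 3578 genes (1395 to 1846 higher, 1220 to 1732 lower), 6 to 7 of the 10 genes (5 to 7 higher, 0 to 1 lower) and 18 to 23 of the other pathway genes. Over these fits Tap2 ran from 0.087 to 0.10, H2-Ab1 from -0.30 to -0.18, Ciita from 0.70 to 0.87, H2-Eb1 from 0.11 to 0.46, H2-Aa from -0.071 to 0.012, H2-Q6 from -0.066 to 0.013, Psmb9 from -0.026 to 0.025, Psmb10 from -0.038 to 0.026, Psme1 from -0.022 to 0.022, Psme2 from 0.021 to 0.070 and Psmb7 from 0.0066 to 0.033. Of 167 values of the 10 genes under alternatives, 149 kept direction and call, 16 lost the call and 2 changed sign.

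The replicate numbers are shared between media, and the labels do not say that they pair cultures. Deviations of same-numbered cultures correlated at -0.03, 0.09, -0.05 and 0.14. With the other numbers the mean correlations were 0.01, -0.02, 0.02 and -0.05. Such low values show little shared variation and cannot tell whether cultures were paired by the replicate number. The fit with that number as a block gave 3446 calls (1759 higher, 1687 lower) and 8 of the 10 genes (7 higher, 1 lower). Low counts limit Ciita, H2-Eb1 and H2-Aa, with 109, 178 and 314 counts in all.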
